A study of Mus musculus with 8 samples.

Results

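CC chemokines are small secreted proteins that draw leukocytes along a gradient by binding G protein-coupled receptors on the cells they attract. In tumors they are known for bringing in monocytes, T cells and dendritic cells, and macrophages are themselves among their sources. Ccl2, Ccl7 and Ccl12 are ligands of Ccr2, the receptor that brings monocytes out of the bone marrow, and Ccl8 is a ligand of mouse Ccr8. Ccl3, Ccl4 and Ccl5 are inflammatory chemokines that draw T cells and macrophages, Ccl6 binds Ccr1, and Ccl17 and Ccl22 bind Ccr4, which regulatory and helper T cells carry.

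These 10 genes were chosen by symbol out of 32285 genes in the single-cell count tables, and all 10 were found. The tables held CD45+ immune cells sorted on day 18 from mammary tumors of female mice that had received E0771, E0771-Res1 or E0771-Res2 cells. E0771 is a C57BL/6 mammary cancer line that models triple-negative disease, and each resistant line was grown from a tumor that relapsed after paclitaxel with anti-PD-1, so each stands for 1 relapse. There were 2 E0771, 3 E0771-Res1 and 3 E0771-Res2 mice with 1 tumor each, and the third parental mouse was not analysed here. The labels give neither the age and strain of the mice nor any treatment after implantation.

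Of 11430 deposited cells, 10605 had 500 to 6000 detected genes and under 10% mitochondrial counts and were kept, 604 to 2020 per mouse. The median unique molecular identifier (UMI) count of a kept cell was 7631 to 8160 in the 5 E0771 and E0771-Res1 mice and 5589 to 7001 in the 3 E0771-Res2 mice, so E0771-Res2 cells were shallower. No barcode was shared between mice. Cells were classed by UMIs of marker genes that included no chemokine, which gave 816 lymphoid cells, 2100 myeloid cells with 10 or more UMIs of the complement gene C1qa, 1867 with 2 to 9, 4279 with 0 or 1, and 188 Ccr7+ dendritic cells with UMIs of Ccr7 and Fscn1. The other 1355 cells joined no class, and 1220 of them carried both lymphoid and myeloid markers. The gates fix the levels of their own genes, which are given as a description and not as a test of the class names: at the median, Cd3g was at 1365 CPM (UMIs of a gene per 1000000 UMIs of its class) in lymphoid cells and 15.6 in C1qa ≤1 cells, Csf1r was at 71.2 and 367, and Ccr7 was at 2258 in the dendritic class and 19 in C1qa ≤1 cells. B cell genes were low in the lymphoid class, with medians of 2.52 CPM for Ms4a1, 17.6 for Cd79b and 22.6 for Cd79a, which reached 115 CPM in 1 mouse. C1qa, a macrophage gene, was at a median of 444 CPM in lymphoid cells, above the 73.8 CPM of the C1qa ≤1 class that its gate holds low. It was at 183 to 2288 CPM in the dendritic class, whose gate does not limit it.

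The 10 genes lie in clusters. On chromosome 11 of GRCm38 (GENCODE M21), Ccl2 (82035571 to 82037453), Ccl7 (82045712 to 82047525), Ccl12 (82101845 to 82103400) and Ccl8 (82115185 to 82116799) lie in this order on the forward strand. Genes other than the 10 members were not placed. After a gap of 1409 kb come Ccl5 (83525778 to 83530518, reverse), Ccl6 (83587882 to 83593087, reverse), Ccl3 (83647844 to 83649355, reverse) and Ccl4 (83662584 to 83664683, forward). Ccl22 (94745590 to 94751699, forward) and Ccl17 (94810453 to 94812036, forward) lie 58.8 kb apart on chromosome 8. All 10 are protein-coding.

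Ccl12 and Ccl8, neighbors 11.8 kb apart, were the members whose promoters are shown, because both were higher in C1qa ≥10 cells. The RefSeq promoter table for GRCm38.p6 held 6 of the 10 members (Ccl3, Ccl6, Ccl8, Ccl12, Ccl17 and Ccl22). The 250 bases before each start are printed with capitals where both genes have the same 6 or more bases in a row in their alignment:
Ccl12, chr11:82101595-82101844, forward: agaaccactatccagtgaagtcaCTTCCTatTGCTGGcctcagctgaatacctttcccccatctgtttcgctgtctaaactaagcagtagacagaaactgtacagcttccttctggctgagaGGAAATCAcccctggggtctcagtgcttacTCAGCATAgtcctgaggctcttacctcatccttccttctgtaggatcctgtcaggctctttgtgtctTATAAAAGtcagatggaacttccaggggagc
Ccl8, chr11:82114935-82115184, forward: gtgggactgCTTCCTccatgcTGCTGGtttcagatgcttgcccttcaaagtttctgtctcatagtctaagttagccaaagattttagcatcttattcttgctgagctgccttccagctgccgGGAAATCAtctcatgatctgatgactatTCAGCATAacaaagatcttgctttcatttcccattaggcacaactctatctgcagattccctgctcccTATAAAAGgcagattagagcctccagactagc
The windows aligned over 228 bases with 150 identical, and the 14 other pairs of member promoters aligned over 1 to 85 bases. The last capitals hold TATAAA, the core of a TATA box. It lay 31 bases before the start of Ccl12 and 32 before that of Ccl8, and no other member promoter in the table held it on either strand. TATAAA stood in 12.4% of all 32851 promoter windows on either strand and in 7.59% on the gene's own strand.

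The chemokines divided among the classes as follows. Ccl8 and, to a lesser degree, Ccl7 and Ccl12 were higher in C1qa ≥10 than in C1qa ≤1 myeloid cells, while Ccl3, Ccl4 and Ccl6 were lower. Ccl5 was also lower in the fit over all mice, but not in the parental mice. Ccl22 and Ccl5 were higher in Ccr7+ dendritic cells than in lymphoid or C1qa ≤1 cells. Lymphoid cells stood above C1qa ≤1 cells for Ccl5 only among the 9 members tested there. The plot of level by class shows these values for each mouse.

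**Figure D1:**
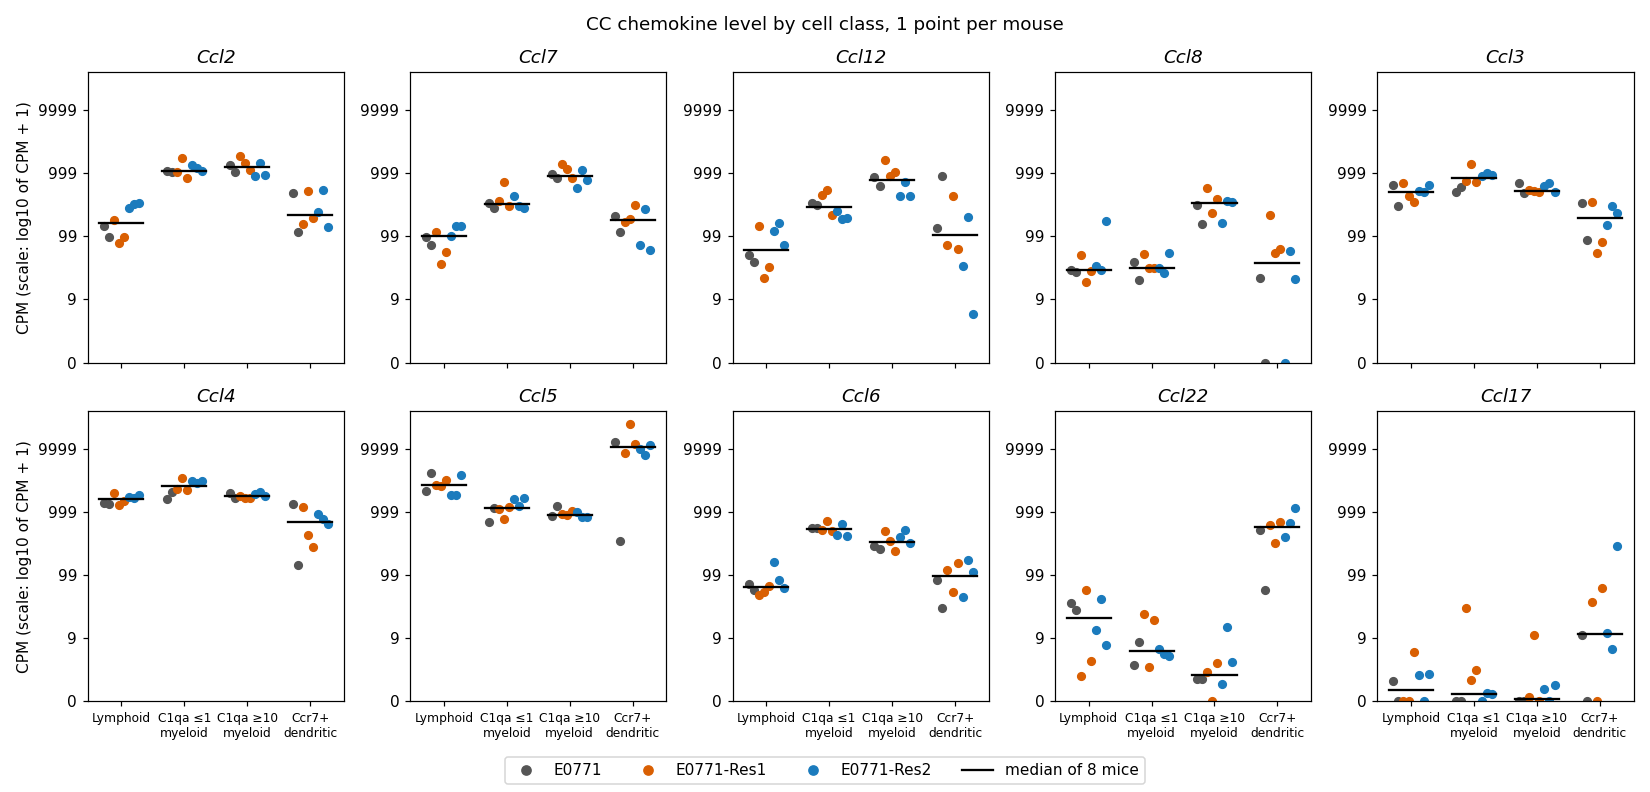
Level of each chemokine in CPM (vertical axis, on a log10 scale of CPM + 1) in 4 cell classes, with 1 point per mouse colored by tumor line and a bar at the median of 8 mice. Ccl8 points of C1qa ≥10 cells (157 to 567 CPM) lie above all C1qa ≤1 points (19 to 52.7 CPM), and Ccl22 is high in the dendritic class.

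Of the 8 members tested, Ccl8 differed most between the myeloid classes. In C1qa ≤1 cells its level was 19 CPM in the lowest mouse, 30.3 at the median and 52.7 in the highest. In C1qa ≥10 cells the lowest mouse had 157 CPM, the median was 331 and the highest 567. The mice did not overlap between classes, and within each mouse the ratio was 5.34 to 14.4. The log2 fold change was 3.04 (SE 0.12, n = 8 mice, adjusted p = 6.44e-14, edgeR's quasi-likelihood test with the mouse as a block and Benjamini-Hochberg adjustment). The C1qa gate itself used no chemokine. After cells were thinned to 2500 UMIs, a median of 15.5% of C1qa ≥10 cells and 4.93% of C1qa ≤1 cells had a Ccl8 UMI. The lymphoid class had 4.51%, so the share in C1qa ≤1 cells was near that of lymphoid cells. The part of background in either share was not tested. The median depth before thinning was 9853 UMIs per cell in C1qa ≥10, 6749 in C1qa ≤1 and 7833 in lymphoid cells.

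Ccl7 and Ccl12, both Ccr2 ligands, rose by less. The Ccl7 level was 282 to 732 CPM (median 319) in C1qa ≤1 and 574 to 1383 (median 897) in C1qa ≥10 cells, with a log2 fold change of 1.27 (SE 0.13, adjusted p = 8.53e-08, edgeR). Ccl12 had 188 to 545 CPM (median 283) and 424 to 1585 (median 778), with a log2 fold change of 1.27 (SE 0.13, adjusted p = 9.54e-08, edgeR). The ranges overlapped for both genes, but each was higher in C1qa ≥10 cells in 8 of 8 mice. Ccl2, the best known monocyte attractant, was not called. Its level was 825 to 1714 CPM (median 1063) in C1qa ≤1 and 910 to 1827 (median 1225) in C1qa ≥10 cells, higher in 5 of 8 mice, with a log2 difference of 0.01 (SE 0.10, adjusted p = 0.959, edgeR).

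Finer steps of C1qa showed how the levels ran within the myeloid cells. The median Ccl8 level over 8 mice was 29.1 CPM at 0 C1qa UMIs, 33.3 at 1, 59.2 at 2 to 4, 123 at 5 to 9, 111 at 10 to 19 and 374 at 20 or more. Ccl12 had 313 CPM at 0 UMIs, 239 at 1, 305 at 2 to 4, 387 at 5 to 9, 356 at 10 to 19 and 915 at 20 or more. Ccl7 had 304 CPM at 0, 363 at 1, 524 at 2 to 4, 494 at 5 to 9, 652 at 10 to 19 and 1002 at 20 or more. In CPM, the step from 10 to 19 to 20 or more was larger than any other for each of these genes. A mouse had only 19 to 135 cells in the step of 5 to 9 and 21 to 113 in the step of 10 to 19. These steps hold the same cells as the classes and were not tested.

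**Figure D2:**
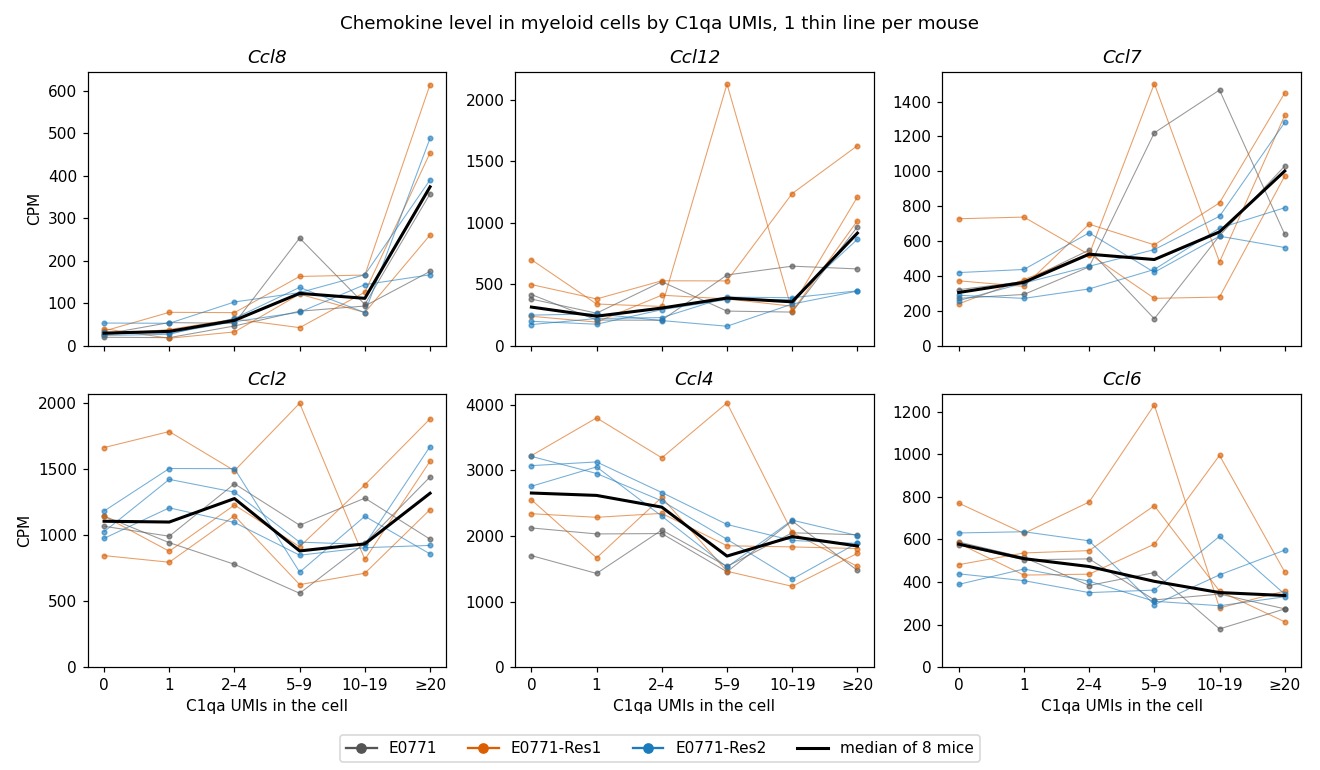
Level in CPM (vertical axis) of 6 chemokines in myeloid cells grouped by their C1qa UMIs (horizontal axis), with a thin line per mouse colored by tumor line and a black line at the median of 8 mice. The Ccl8 median goes from 29.1 CPM at 0 UMIs to 374 CPM at 20 or more, while Ccl6 goes from 578 to 337 CPM.

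The inflammatory chemokines Ccl3, Ccl4 and Ccl5 and the Ccr1 ligand Ccl6 went the other way. Ccl4 had a median of 2596 CPM in C1qa ≤1 and 1803 in C1qa ≥10 cells, with a log2 fold change of -0.58 (SE 0.10, adjusted p = 7.25e-05, edgeR), and Ccl3 had 824 and 525 CPM with a log2 fold change of -0.63 (SE 0.12, adjusted p = 0.000261, edgeR). Both were lower in C1qa ≥10 cells in 7 of 8 mice. Ccl5 fell by 0.37 on the log2 scale (SE 0.11, adjusted p = 0.00714, edgeR) but was lower in only 5 of 8 mice. It was higher in both parental mice and in E0771-Res1 replicate 2, and its class difference varied between lines, as given below. Ccl6 fell by 0.69 on the log2 scale (SE 0.11, adjusted p = 2.08e-05, edgeR) and was lower in 8 of 8 mice, with a median of 534 CPM in C1qa ≤1 and 334 in C1qa ≥10 cells. Of the 8 members tested, 3 rose and 4 fell between these classes. Over all 8842 genes tested, 54.6% were called in this comparison. The median log2 fold change was -0.18 over the members and 0.02 over all genes.

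Lymphoid cells, taken as 1 class, carried Ccl5 and, below the C1qa ≤1 level, Ccl3 and Ccl4. Ccl5 had 1820 CPM in the lowest mouse, 2619 at the median and 4065 in the highest, against 683 to 1628 CPM in C1qa ≤1 cells. The ranges did not overlap, and it was higher in lymphoid cells in 8 of 8 mice, with a log2 fold change of 0.86 (SE 0.13, adjusted p = 3.23e-06, edgeR). Ccl4 had 1304 to 1985 CPM and Ccl3 304 to 694, and they were 1.04 (SE 0.10) and 1.06 (SE 0.14) lower on the log2 scale than in C1qa ≤1 cells (adjusted p = 1.98e-09 and 5.33e-07, edgeR). Ccl2 (-2.98), Ccl7 (-2.21), Ccl12 (-2.20) and Ccl6 (-3.21) were lower as well. Of the 9 members tested 1 rose and 6 fell, where 70% of 8419 genes were called. Ccl8 and Ccl22 were not called, with log2 differences of -0.04 (SE 0.20) and 0.77 (SE 0.54), and Ccl17 had too few UMIs to be tested.

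At the median over the mice, the lymphoid values of Ccl2, Ccl7, Ccl12 and Ccl6 sat near the summed level of the myeloid gate genes. Within a mouse, the lymphoid level was a median of 15.2% of the C1qa ≤1 level for Ccl2, 26.7% for Ccl7, 23.4% for Ccl12 and 13.1% for Ccl6. The 10 myeloid genes used for the gate were together at 19.3% (14.0% to 27.5% over the mice). Singly, their medians ran from 11.5% for Cd14 to 30.7% for Cd86 and 62.5% for Itgax. Ccl4 (62.2%), Ccl3 (54.3%) and Ccl5 (253%) lay above the summed level at the median. So did Ccl8 (102%) and Ccl22 (278%), both at low levels in C1qa ≤1 cells. Over the mice, Ccl12 ran from 3.80% to 84.4%, Ccl7 from 4.85% to 50.8%, Ccl6 from 7.50% to 37.2% and Ccl2 from 4.48% to 31.1%. The lymphoid gate itself limits the myeloid genes, so their level is not an independent measure of background. The part of free RNA in the lymphoid values of Ccl2, Ccl7, Ccl12 and Ccl6 was not tested.

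Within the lymphoid class Ccl3, Ccl4 and Ccl5 followed the kind of cell. Natural killer cells (no Cd3 UMI and at least 1 of Ncr1, Klrb1c or Klrd1, 11 to 32 cells per mouse) had 2531 to 4689 CPM of Ccl4 with a median of 3367. CD8 T cells (14 to 61 per mouse) had 907 to 2466 CPM with a median of 1234, and CD4 T cells (9 to 46 per mouse) had 363 to 1151 with a median of 775. The natural killer values lay above all CD8 values and all CD4 values. Ccl3 had medians of 901, 492 and 214 CPM in the same order, with overlap between natural killer (590 to 1413 CPM) and CD8 T cells (220 to 1074 CPM). The natural killer means of Ccl4 and Ccl3 (3572 and 932 CPM) were above the C1qa ≤1 means (2591 and 842 CPM), with overlapping ranges. The other lymphoid cells (11 to 49 per mouse) had medians of 1365 CPM for Ccl4 and 326 for Ccl3. Ccl5, which cytotoxic lymphocytes store for release, had 5427, 2872 and 1471 CPM, but its ranges overlapped (1537 to 8991, 1150 to 3809 and 732 to 3312 CPM). These groups rest on few cells and were not tested.

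**Figure D3:**
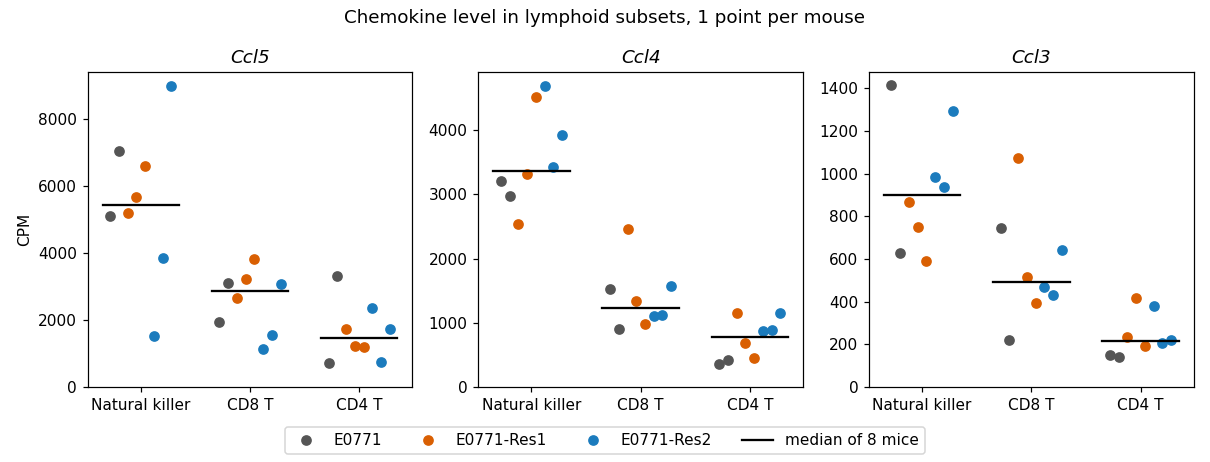
Level in CPM (vertical axis) of Ccl5, Ccl4 and Ccl3 in natural killer, CD8 T and CD4 T cells, with 1 point per mouse colored by tumor line and a bar at the median of 8 mice. Ccl4 in natural killer cells (2531 to 4689 CPM) lies above every CD8 and CD4 T cell value.

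Ccr7+ dendritic cells, which carry antigen from the tissue to lymph nodes, had a higher level of the Ccr4 ligand Ccl22 than the lymphoid and C1qa ≤1 classes. The class was small, with 5 to 49 cells per mouse, and the tests below use the 6 mice with at least 10 such cells and leave out E0771 replicate 3 (5 cells) and E0771-Res1 replicate 2 (7 cells). Over all 8 mice Ccl22 had 57.9 CPM in the lowest mouse, 573 at the median and 1139 in the highest. The lowest mouse is the one with 5 cells and 2 Ccl22 UMIs. In C1qa ≤1 cells Ccl22 had 2.45 to 23.4 CPM, so the classes did not overlap in any mouse. Against C1qa ≤1 and lymphoid cells alike, Ccl22 passed the filter on low counts largely through the dendritic sums, where it was high. Its fitted log2 fold change was 6.31 over C1qa ≤1 cells (SE 0.27, n = 6 mice) and 5.75 over lymphoid cells (SE 0.35). Both values are given as a description and not as a test. In cells thinned to 2500 UMIs a median of 35% of Ccr7+ dendritic cells had a Ccl22 UMI, against 1.44% of lymphoid cells, at median depths of 7840 and 7833 UMIs per cell before thinning. Single cells weighed much: 150 of the 230 UMIs in E0771-Res2 replicate 3 and 70 of 116 in E0771-Res2 replicate 2 came from 1 cell each.

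Ccl17, the other Ccr4 ligand, was barely detected. It had 318 UMIs in all 10605 kept cells. In Ccr7+ dendritic cells its level was 0 in 2 mice, 282 CPM in the highest and 10.8 at the median, and a count of 0 allowed up to 86.9 CPM in E0771 replicate 3 and 80.3 in E0771-Res1 replicate 2 (3 counts per library, counting error only). In C1qa ≤1 cells Ccl17 was at 29.2 CPM in E0771-Res1 replicate 1 and at most 2.18 CPM in the other mice. The gene thus passed the filter on low counts largely through the dendritic sums, where it was high. The fitted log2 fold change over C1qa ≤1 cells was 4.15 (SE 0.78, n = 6 mice), given as a description and not as a test. A fit was possible under 13 of the 17 alternatives. The fold change rested on few cells: 56 of the 57 UMIs of the highest mouse came from 1 dendritic cell, and 106 UMIs of 1 cell made up the whole Ccl17 count of C1qa ≤1 cells in E0771-Res1 replicate 1.

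Ccl5 was the other chemokine raised in the dendritic class. It had 7959 to 24493 CPM in 7 mice and 348 CPM in the mouse with 5 cells, with a log2 fold change of 3.22 over C1qa ≤1 cells (SE 0.16, n = 6 mice, adjusted p = 7.97e-16, edgeR) and 2.44 over lymphoid cells (SE 0.12, adjusted p = 5.56e-13, edgeR). In the 6 mice tested the level was 6.20 to 18.8 times that of C1qa ≤1 cells. Ccl2 (-1.89), Ccl7 (-0.84), Ccl12 (-1.65), Ccl3 (-1.55), Ccl4 (-1.48) and Ccl6 (-2.06) were lower on the log2 scale than in C1qa ≤1 cells, and Ccl8 was not called (0.83, SE 0.36, adjusted p = 0.0669, edgeR). Against C1qa ≤1 cells 3 of 10 members rose and 6 fell, where 39.5% of genes were called. The 3 include Ccl17 and Ccl22, whose values are descriptions only. Against lymphoid cells Ccl22, Ccl5, Ccl7 (1.03), Ccl6 (0.96) and Ccl2 (0.72) rose and Ccl3 (-0.83) and Ccl4 (-0.65) fell, 7 of 9 members, where 50.5% of genes were called. The Ccl22 value is a description there as well. The myeloid gate genes were at a median of 36.6% of their C1qa ≤1 level in this class. C1qa, which the dendritic gate does not limit, was at 183 to 1026 CPM in the 6 mice tested, against 278 to 732 in their lymphoid cells. The part of free RNA or of other myeloid cells in the Ccl2, Ccl7 and Ccl6 values of the dendritic class was not tested. Against lymphoid cells Ccl2 was higher in only 3 of 6 mice, Ccl7 in 4 and Ccl6 in 5. Ccl7 went to 0.30 (adjusted p = 0.46, edgeR) with gates on thinned cells, Ccl4 to -0.47 (0.14) with cells of both marker lists counted as myeloid, and Ccl6 to 0.75 (0.0528) without E0771-Res1 replicate 1. With cells of both lists counted, Ccl7 against C1qa ≤1 cells also lost its call (-0.31, adjusted p = 0.0736). The Ccl2 difference was lost with DESeq2 (adjusted p = 0.0834) and without E0771 replicate 1 (0.13) or E0771-Res2 replicate 2 (0.0742), and it changed sign, to -0.11 (adjusted p = 0.754, edgeR), when the gates were set on thinned cells.

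A class's share of a chemokine depends on its level, on its number of cells and on their depth. The shares pool the UMIs of the 8 mice, so mice with more UMIs weigh more. C1qa ≥10 cells were 2100 of 10605 kept cells and held 61.3% of all Ccl8 UMIs, 50.0% of Ccl12, 46.8% of Ccl7 and 33.1% of Ccl2. In single mice these shares were 40.3% to 72.4% for Ccl8, 31.5% to 64.4% for Ccl12, 33.4% to 60.6% for Ccl7 and 21.8% to 52.7% for Ccl2. C1qa ≤1 cells were 4279 of 10605 kept cells, a mean of 41.9% over the mice. They held 36.6% of Ccl2, 42.6% of Ccl6, 41.4% of Ccl3 and 40.7% of Ccl4, near their share of cells. The 188 Ccr7+ dendritic cells held 51.0% of the 1595 Ccl22 UMIs, 150 and 70 of them in the 2 single cells named above, and 12.8% of Ccl5, close to the 14.3% of Ccl5 in 816 lymphoid cells. The share of Ccl22 from the dendritic class ranged from 3.45% to 77.4% between mice, with the lowest in the mouse with 5 such cells. Pooled over the mice, cells in no class held 11.9% to 19.5% of each member's UMIs. In single mice they held 6.83% to 48.3% of Ccl8 and 0% to 100% of Ccl17, a gene with few UMIs.

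**Figure D4:**
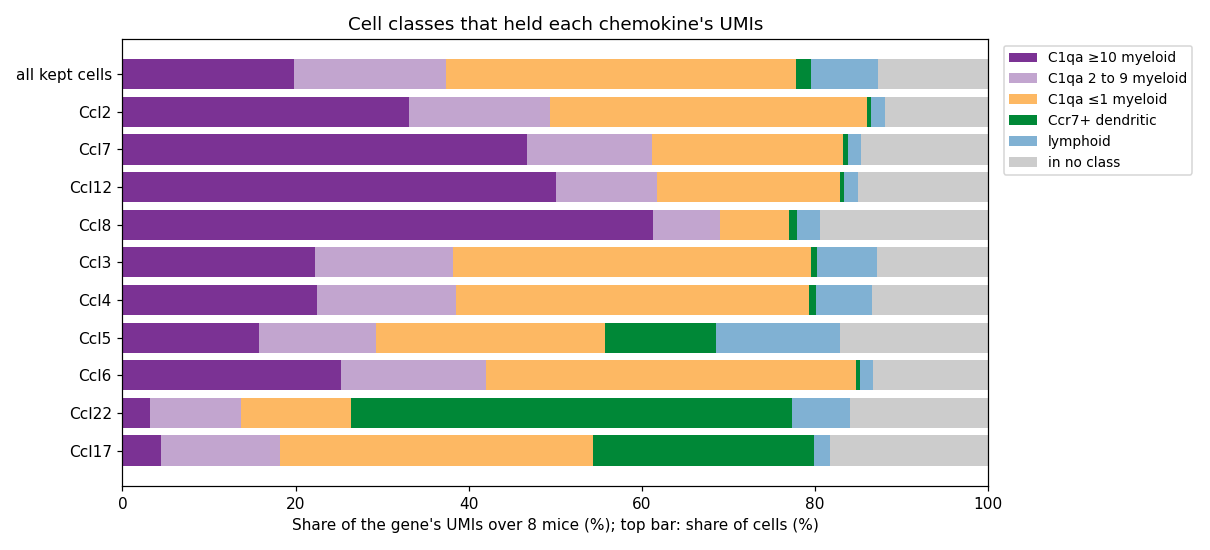
Share in percent (horizontal axis) of each chemokine's UMIs held by each cell class over 8 mice, with the share of kept cells in the top bar. C1qa ≥10 cells hold 61.3% of Ccl8 UMIs and Ccr7+ dendritic cells hold 51.0% of Ccl22 UMIs.

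Detection in the same cell was looked at for a chosen few pairs of members and not for all pairs. In some of the chosen pairs, the second gene was detected more often in cells with the first than in cells without it. In C1qa ≥10 cells thinned to 2500 UMIs, Ccl7 had a UMI in a median of 61.3% of cells with Ccl2 and 22.1% of cells without. Ccl12 had one in 58.9% of cells with Ccl7 and 22.5% of those without, and Ccl4 in 83.5% of cells with Ccl3 and 56.1% of those without. In C1qa ≤1 cells the same shares were 31.1% and 9.8% for Ccl7 by Ccl2, 39.0% and 15.2% for Ccl12 by Ccl7 (medians), and for Ccl4 by Ccl3 they were 69.7% to 86.8% and 48.1% to 65.3% over the mice. The 2 ranges over mice did not overlap in any of these 6 comparisons, but they did for other pairs of genes from the same cluster. Ccl12 by Ccl8 in C1qa ≥10 cells gave 54.4% and 37.2%, and Ccl5 by Ccl4 gave 45.8% and 38.8% there and 46.9% and 28.3% in C1qa ≤1 cells, each with overlapping ranges. Ccl12 by Ccl8 in C1qa ≤1 cells gave 22.4% and 19.8% with overlapping ranges. Ccl4 by Ccl2, whose genes lie in different clusters, gave 76.1% and 60.5% in C1qa ≥10 cells, also with overlapping ranges. Cells of a mouse are not independent replicates, and these shares were not tested. Pairs of other genes at like levels were not looked at, so the shares cannot set these pairs apart.

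Over 30 sums per mouse and class and 8988 genes, the 3 genes whose log2 CPM ran most like a member's were taken for each member. The closest gene was a chemokine for Ccl3, Ccl4 and Ccl12. Ccl3 and Ccl4 were each other's closest gene (Pearson's r = 0.941). Ccl7 was the closest gene to Ccl12 (r = 0.925), and Ccl12 was the third closest to Ccl7 after C5ar1 (0.933) and Dse. Ccl6 ran most like Igsf6 (0.968) and its neighbor Ccl9 (0.960), Ccl8 like Tmed3 (0.883), Pold4 and Folr2 (0.852), and Ccl2 like Slc7a8 (0.959), Pilra and Rgl1. Ccl5 ran most like Tbc1d4 (0.967), Gnb4 and Ramp3, Ccl22 like Il4i1 (0.941), Mmp25 and Strip2, and Ccl17 like Casc1 (0.827), Bcl2a1d and Bcl2a1b. The sums share mice and classes, so these are descriptions across few cell classes.

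The tumor lines were compared to ask whether the immune cells of resistant tumors carried other chemokines than those of parental tumors. The 3 line comparisons share mice. Ccl12 was the member that differed most steadily, lower in E0771-Res2 than in E0771-Res1 tumors. Ccl4 in C1qa ≤1 cells and Ccl2 in lymphoid cells were higher in E0771-Res2 tumors in calls that were lost under other settings. No member was called between E0771-Res1 and parental tumors in any class.

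Summed over all kept cells Ccl12 had 408 and 361 CPM in the 2 parental mice. It had 852, 592 and 465 CPM in E0771-Res1 mice, and 279, 353 and 281 CPM in E0771-Res2 mice. All E0771-Res1 values lay above all others, and the parental values lay between the 2 resistant lines. Between E0771-Res2 and E0771-Res1 the log2 fold change was -1.07 (SE 0.16, n = 3 and 3, adjusted p = 0.00457, edgeR), and it was called under all 17 alternatives, 2 of which leave this sum as it is. Fewer cells of a type and less RNA per cell cannot be told apart in such a sum. Ccl12 was the 1 member called of 10 in this comparison, where 4.2% of genes were called. Ccl7, next to it among the members, had -0.52 (SE 0.15, adjusted p = 0.0748, edgeR). Against parental cells Ccl12 had a log2 difference of 0.72 in E0771-Res1 (SE 0.19, adjusted p = 0.206) and -0.35 in E0771-Res2 tumors (SE 0.18, adjusted p = 0.305, edgeR), neither called. Of 10 members 0 were called there, where 0.0353% of genes were called for E0771-Res1 and 4.37% for E0771-Res2.

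The difference was also seen within classes. In C1qa ≥10 cells Ccl12 had 847 and 629 CPM for parental, 1585, 888 and 1028 for E0771-Res1, and 424, 708 and 435 for E0771-Res2 mice. The 2 resistant lines did not overlap. The log2 fold change was -1.16 (SE 0.21, adjusted p = 0.00777, edgeR), 1 of 8 members called where 2.45% of genes were called. It missed the threshold without E0771-Res2 replicate 1 (adjusted p = 0.0544) or replicate 3 (0.0554). The C1qa ≤1 levels of Ccl12 were 331 and 315 CPM for parental mice, 450, 545 and 219 for E0771-Res1 and 252, 188 and 190 for E0771-Res2, and the third E0771-Res1 mouse lay within the E0771-Res2 range. The log2 fold change was -0.97 (SE 0.22, adjusted p = 0.0236, edgeR), lost with DESeq2 (adjusted p = 0.144) and without any of E0771-Res1 replicate 1 (0.0578), E0771-Res1 replicate 2 (0.0782), E0771-Res2 replicate 2 (0.0625) or E0771-Res2 replicate 3 (0.135).

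**Figure D5:**
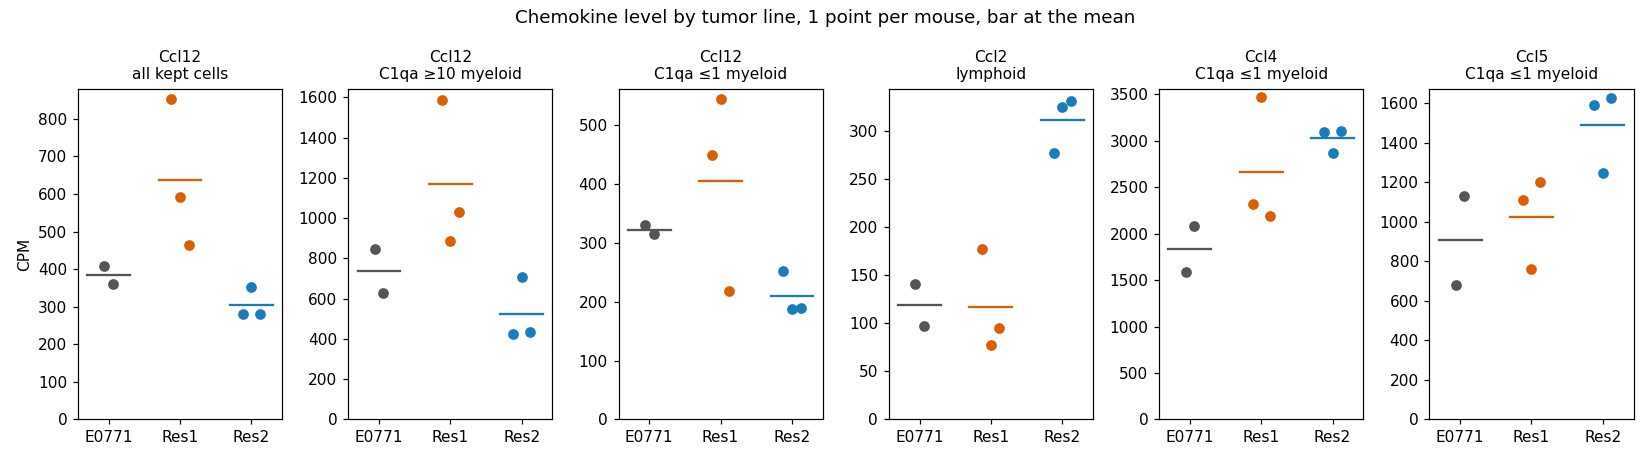
Level in CPM (vertical axis, from 0) of 4 chemokines in the named cells, with 1 point per mouse by tumor line and a bar at the mean. Ccl12 over all kept cells is 465 to 852 CPM in E0771-Res1 and 279 to 353 CPM in E0771-Res2 mice.

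Ccl4 in C1qa ≤1 cells had 1589 and 2079 CPM in parental mice. It had 2318, 3469 and 2193 CPM in E0771-Res1 mice and 3095, 2874 and 3111 in E0771-Res2 mice. Parental mice lay below all others. Against parental cells E0771-Res2 Ccl4 was higher by a log2 fold change of 0.71 (SE 0.18, n = 2 and 3, adjusted p = 0.0325, edgeR), the 1 member called of 9 where 4.62% of genes were called. Ccl3 (0.77, SE 0.21, adjusted p = 0.051) and Ccl5 (0.70, SE 0.20, adjusted p = 0.0529) missed the threshold narrowly. The Ccl4 call was lost with DESeq2 (adjusted p = 0.122), with gates on thinned cells (0.0626), and without E0771 replicate 1 (0.368) or 3 (0.0786) or E0771-Res2 replicate 1 (0.0704) or 3 (0.111). The 8 dissociation stress genes, Fos and Jun among them and none at 0, moved with it: their summed level in C1qa ≤1 cells was 5218 to 5426 CPM for parental mice, 5323 to 6643 for E0771-Res1 and 6007 to 8732 for E0771-Res2, and their part in the result was not tested.

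Ccl5 differed by class between the lines. Its C1qa ≤1 level was 683 and 1133 CPM for parental mice, 1112, 759 and 1200 for E0771-Res1 and 1593, 1250 and 1628 for E0771-Res2. In C1qa ≥10 cells it had 865 and 1248, then 927, 876 and 1022, then 979, 842 and 840 CPM. E0771-Res2 mice were the highest in the first class and overlapped the others in the second. The change from parental to E0771-Res2 was 1.00 lower on the log2 scale in C1qa ≥10 than in C1qa ≤1 cells (SE 0.14, adjusted p = 0.00146 over 8842 genes, edgeR interaction test, added after the values were seen). By the same test the change in lymphoid cells was 1.02 lower than in C1qa ≤1 cells (SE 0.21, adjusted p = 0.0339). The dissociation stress genes summed to 5218 to 5426 CPM for parental and 6007 to 8732 for E0771-Res2 mice in C1qa ≤1 cells. Their sums were 4801 to 4987 and 4773 to 5703 CPM in C1qa ≥10 cells, and 4118 to 4764 and 5277 to 5695 in lymphoid cells. Their part in the Ccl5 result was not tested. The interaction tests were run in the main setting only and not under the alternatives. In the C1qa ≤1 class the median depth was 4595 to 5950 UMIs per cell in E0771-Res2 mice and 7352 and 7628 in parental mice. C1qa was at 84.9 to 95.5 CPM and at 68.0 and 75.6 CPM there. The part of depth in the Ccl5 result was not tested.

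In lymphoid cells Ccl2 had 141 and 97.4 CPM for parental mice, 177, 76.9 and 95.5 for E0771-Res1 and 277, 325 and 331 for E0771-Res2. E0771-Res2 mice lay above all others. The log2 fold change was 1.37 against parental (SE 0.24, n = 2 and 3, adjusted p = 0.0402, edgeR) and 1.30 against E0771-Res1 cells (SE 0.20, n = 3 and 3, adjusted p = 0.00894, edgeR). Each was the 1 member called of 9, where 0.0519% and 0.221% of genes were called. All these levels are at 4.48% to 31.1% of the C1qa ≤1 level, where the myeloid gate genes are also found. The summed level of those 10 genes in lymphoid cells was 1370 to 1875 CPM for parental mice, 1493 to 1629 for E0771-Res1 and 1560 to 2409 for E0771-Res2, and C1qa was at 345 to 547, 136 to 470 and 418 to 732 CPM. Their part in the Ccl2 difference was not tested. With gates on thinned cells the log2 differences were 0.75 (adjusted p = 0.449) and 0.60 (adjusted p = 0.446). The first call was also lost without E0771 replicate 1 (adjusted p = 0.21), E0771 replicate 3 (0.359) or E0771-Res2 replicate 3 (0.0797), and the second without E0771-Res1 replicate 3 (0.118).

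The remaining line comparisons gave few or no calls. In C1qa ≤1 cells Ccl22 was lower in E0771-Res2 than in E0771-Res1 mice (log2 fold change -1.75, SE 0.45, adjusted p = 0.041, edgeR), so 2 of 9 members were called where 3.41% of genes were called. The values were 23.4, 2.45 and 18.8 CPM in E0771-Res1 and 5.81, 4.55 and 4.24 CPM in E0771-Res2 mice, which overlapped. Of the 85 UMIs in E0771-Res1 replicate 1, 58 came from 1 cell. The call was lost with DESeq2 (adjusted p = 0.394), with C1qa limits of 20 and 0 (0.0769) and without E0771-Res1 replicate 1 (0.207) or 3 (0.112) or E0771-Res2 replicate 1 (0.0907), 2 (0.0811) or 3 (0.187). For E0771-Res1 against parental tumors 0 of 9 members were called in lymphoid cells (0.013% of genes called), 0 of 8 in C1qa ≥10 cells (0.293%) and 0 of 9 in C1qa ≤1 cells (0.0105%). For E0771-Res2 against parental tumors 0 of 8 were called in C1qa ≥10 cells (1.75%), with log2 differences of -0.53 to 0.57.

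In Ccr7+ dendritic cells no member was called between lines. That fit dropped the mice with 5 and 7 such cells and kept 1 parental mouse, with 2 of E0771-Res1 and 3 of E0771-Res2, and the lone parental mouse was assumed to vary like the others. Of 3812 genes 0.0525% were called for E0771-Res1 and 0% for E0771-Res2 against parental cells, and 0.0262% between the resistant lines. Beside the 0 calls, 278 genes had an unadjusted p under 0.05 in edgeR, and DESeq2 also called 0. Ccl22 differed by 0.41 (SE 0.42), 0.54 (SE 0.39) and 0.13 (SE 0.30) on the log2 scale in these 3 comparisons. Ccl8 had the lowest adjusted p, 0.115, between the resistant lines, with a log2 difference of -2.63 (SE 0.59), and 60 of the 70 UMIs of E0771-Res1 replicate 1 came from 1 cell.

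The other genes of the pathway were 12 further chemokines and 8 receptors, of which at most 6 and 5 were abundant enough to be tested in a comparison. Ccl9, a Ccr1 ligand next to Ccl6, was lower in lymphoid (log2 fold change -2.78) and Ccr7+ dendritic cells (-1.36) than in C1qa ≤1 cells, and higher in dendritic than in lymphoid cells (1.25). Xcl1, which draws cross-presenting dendritic cells, was higher in lymphoid cells, with 1302 to 2760 CPM in lymphoid and 23.2 to 35.8 in C1qa ≤1 cells (log2 fold change 5.77). It was also lower in C1qa ≥10 than in C1qa ≤1 cells (-0.72), at medians of 17.9 and 26.9 CPM where the T cell gene Cd3g had 8.78 and 15.6, and the part of free RNA in this was not tested. It was lower in dendritic than in lymphoid cells (-6.24). Of the 3 receptors tested, 1 rose and 2 fell from C1qa ≤1 to C1qa ≥10 cells, 3 fell to lymphoid and 3 to dendritic cells, and 2 were lower in dendritic than in lymphoid cells. Values are given for Ccr2 and Ccr1, which were lower in C1qa ≥10 than in C1qa ≤1 cells (-0.94 and -0.66). Both were lower in lymphoid than in C1qa ≤1 cells (-1.34 and -2.95) and in dendritic than in C1qa ≤1 cells (-2.10 and -2.43), and Ccr2 was lower in dendritic than in lymphoid cells (-0.82).

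Between lines, the receptors Ccr2 and Ccr1 were lower in E0771-Res2 tumors. Ccr2 had 431 and 427 CPM over all kept cells for parental mice, 337, 437 and 396 for E0771-Res1 and 241, 316 and 213 for E0771-Res2, with all E0771-Res2 values below the others. Its log2 fold change was -0.75 against parental (SE 0.15, adjusted p = 0.0162, edgeR) and -0.61 against E0771-Res1 cells (SE 0.14, adjusted p = 0.0271, edgeR). It fell in the same comparisons by 0.90 and 0.83 in C1qa ≥10 cells and by 0.74 and 0.58 in C1qa ≤1 cells. Ccr1 fell against parental cells by 0.72 over all kept cells and 0.76 in C1qa ≤1 cells. Ccl24, an eosinophil attractant, was lower in E0771-Res2 than in E0771-Res1 tumors over all kept cells (-1.48) and in C1qa ≤1 cells (-2.22). Over all kept cells the medians were 34.8 CPM in E0771-Res1 and 11.4 in E0771-Res2 mice, and parental mice had 5.23 and 7.58 CPM. In C1qa ≤1 cells the medians were 28.7 and 5.59 CPM, and the ranges overlapped (7.43 to 44.6 and 2.42 to 9.95). Parental mice had 3.36 and 8.02 CPM there, so their values lay near those of E0771-Res2 mice.

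Lists of markers of tumor, stromal and other blood cells, of which neutrophils, basophils and mast cells also carry CD45, had these levels. Over all kept cells the 8 tumor epithelial genes summed to 5.43 to 11.7 CPM, the 6 fibroblast genes to 0 to 4.49, the 4 basophil and mast cell genes to at most 1.74, the 4 erythroid genes to 2.75 to 40.6, the 4 endothelial genes to 80.7 to 152 and the 6 neutrophil genes to 86.2 to 330 CPM. Between 2 and 6 of the epithelial genes were at 0 in a mouse, and no endothelial or neutrophil gene was.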

How the data were processed

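CD45+ cells were tagged per mouse with oligonucleotides and, the paper states, pooled before droplet-based 3′ libraries were made. The number of droplet reactions is not given there, so free RNA cannot be assigned to a mouse or line. Cells from 8 mice were counted by the authors with Cell Ranger (6.1.2 in the file headers, build mm10 per the labels), and raw UMI counts per gene and cell were deposited without normalization. The 9 tag rows were left out, as were mitochondrial, Rpl, Rps and Gm genes, leaving 23649 genes. Totals were 5036667 to 18894504 counts per mouse, which set the precision.

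Lymphoid cells had at least 3 UMIs of 15 lymphoid genes and more than of 10 myeloid genes. Of the others with at most 2 lymphoid UMIs, Ccr7+ dendritic cells had UMIs of Ccr7 and Fscn1, and myeloid cells had at least 3 myeloid UMIs. Scrublet (scanpy 1.11.5, rate 0.06) marked under 0.5% of cells at its own threshold, taken as a failed call. Doublets were kept, and leaving out the highest 5% of scores was an alternative. Shares of cells with a UMI were taken after thinning to 2500 UMIs.

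For each class, the counts of a mouse with 10 or more such cells were added up and tested by edgeR 4.0.16 in R 4.3.3 (TMM, filterByExpr, quasi-likelihood test, Benjamini-Hochberg over all genes tested, threshold 0.05), in 1 fit over the 3 lines or, between classes, with the mouse as a block. Most alike genes were the 3 with the highest Pearson correlation of log2 CPM (prior count 2). All members were named, and of the other chemokines and receptors those called, except 1 receptor not reported here. Alternatives were DESeq2 1.42.0, RLE scaling, no filter on low counts, all deposited cells, gates on thinned cells, C1qa limits of 20 and 0, no mouse block, a replicate block, each mouse left out, and, chosen after seeing the data, myeloid cells that also carried lymphoid markers. On simulated data with 200 genes changed by 1.5 (log2), 87.5% of them were recovered for E0771-Res2 against E0771 in C1qa ≤1 cells (9345 genes), 79.5% in lymphoid cells (7474), 100% between the myeloid classes (8739), and 31% for the interaction of class and line (8739). Promoters were aligned with Biopython 1.88. Replicates were separate mice, whose counts differed by more than sampling noise. The members and lists were chosen with earlier results of these data known.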

Additional observations from a re-analysis of the deposited data

Results flagged for a closer look

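Differences of a line effect between cell classes were found for 2 chemokines, each by an edgeR interaction test over all genes that was added after the values were seen. These tests were run in the main setting only and not under the alternatives. For Ccl5 the change from E0771 to E0771-Res2 was lower in C1qa ≥10 than in C1qa ≤1 myeloid cells by a log2 difference of -1.004 (adjusted p = 0.00146, 31 of 8842 genes called), and lower in lymphoid than in C1qa ≤1 cells by -1.02 (adjusted p = 0.0339, 15 of 8419 genes called). For Ccl2 the change from E0771-Res1 to E0771-Res2 was higher in lymphoid than in C1qa ≤1 cells by 1.23 (adjusted p = 0.0372, 21 of 8419 genes called), and the lymphoid Ccl2 level lay near that of myeloid marker genes in the same cells. The part of the dissociation stress genes in the Ccl5 differences was not tested. The groups of 2 and 3 mice were too small for a test of single outlying mice.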

How the results depend on the processing

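Members called in the main setting had 625 values under an alternative, mostly for comparisons between classes. Of these, 591 kept their direction and side of the threshold, 33 lost the call and 1 reversed. The reversal was Ccl2 in dendritic against lymphoid cells with gates on thinned cells (-0.11). Most of the lost calls were between lines. There only Ccl12 over all kept cells held under all 17 alternatives. In C1qa ≤1 cells the Ccl22 call was lost in 7 of 17 and the Ccl4 call in 6 of 17. Members called moved most without a filter on low counts: 5, 3 and 4 over all kept cells (E0771-Res1 against E0771, E0771-Res2 against E0771, E0771-Res2 against E0771-Res1), 3 and 4 in lymphoid cells (the last 2 of these), 3, 2 and 4 in C1qa ≥10, 5, 4 and 5 in C1qa ≤1 and 2, 1 and 1 in dendritic cells. The cause was not tested. The share of all genes called under each alternative is not given here. Counts of members under the alternatives therefore cannot set the members apart from other genes. DESeq2 gave 2, for the first and again for the last, over all kept cells, and 0 for both E0771-Res2 comparisons in C1qa ≤1 cells. Gates on thinned cells gave 0 and 0 in lymphoid cells, and C1qa limits of 20 and 0 gave 2 for E0771-Res2 against E0771. Replicate numbers did not pair the mice (correlations of deviations -0.04 to 0.07), and a replicate block gave 2 for E0771-Res2 against E0771-Res1 over all kept cells, 5 for E0771-Res2 against E0771 in C1qa ≤1 cells and 2, 2 and 2 in dendritic cells. With each mouse left out, the calls in the same order were 0 to 2, 0 to 2 and 1 to 2 over all kept cells, 0 to 0, 0 to 1 and 0 to 3 in lymphoid, 0 to 0, 0 to 0 and 0 to 2 in C1qa ≥10, 0 to 1, 0 to 4 and 0 to 3 in C1qa ≤1, and 0 to 2, 0 to 1 and 0 to 2 in dendritic cells, where E0771 replicate 1 could not be left out. Between classes they were 7 to 8, 7 to 8, 8 to 10 and 6 to 8. With 2 or 3 mice per line and 5 to 49 dendritic cells per mouse, small differences were not detectable.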
